A study of Canis lupus familiaris with 16 samples.

Results

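The transcripts of 10 genes of the transforming growth factor beta (TGF-beta) pathway were followed in canine hepatocellular carcinoma cell lines given a kinase inhibitor or its vehicle. The genes were taken by symbol from the count tables, 10 of 39543 symbols. They code for the ligands TGFB1, TGFB2, TGFB3 and INHBA, the receptors TGFBR1 and TGFBR2, the signal transducer SMAD3, and the negative regulators SMAD6, SMAD7 and SKIL. Each had 1 entry in every table and matched a protein-coding canine gene of the same symbol in RefSeq, and all 10 passed the filter on low counts.

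The cells were 4 lines cultured from hepatic tumours of dogs: KU-cHCC-001, KU-cHCC-004, KU-cHCC-002 and also KU-cHCC-005. Each was given sorafenib at 30 µM, toceranib at 15 µM, dimethyl sulfoxide (DMSO, the vehicle of sorafenib) or Dulbecco's phosphate-buffered saline (DPBS, the vehicle of toceranib) for 24 h. Sorafenib and toceranib are both small-molecule inhibitors of several receptor tyrosine kinases, and toceranib is used in dogs. There was 1 RNA library per line and treatment, 16 in all, so the lines served as the replicates of a treatment. All libraries came from growing cultures in medium with fetal bovine serum, and the labels name no second culture of any line.

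TGF-beta ligands are secreted in a latent form and, once released, bind TGFBR2, which recruits and activates TGFBR1. TGFBR1 then phosphorylates SMAD2 and SMAD3, which enter the nucleus with SMAD4. INHBA codes for the subunit of activin A, which signals to the same SMADs through activin receptors, while bone morphogenetic proteins (BMPs) signal through SMAD1, SMAD5 and SMAD9. SMAD7 blocks both branches and SMAD6 mainly the BMP branch, SKIL (SnoN) represses SMAD target genes, and all 3 are themselves induced by signalling. In liver the pathway restrains hepatocyte growth and drives fibrosis, and in carcinoma it is known for promoting invasion.

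Library totals ran from 12008366 to 21943572 counts. The DPBS libraries did not all go with their line labels: that labelled KU-cHCC-001 correlated with that labelled KU-cHCC-004 at Pearson's r = 0.996, that labelled KU-cHCC-002 with that labelled KU-cHCC-005 likewise at 0.996. The nearest other library of the first pair was the toceranib library of KU-cHCC-002, at 0.981 and 0.983, and that of the second pair was the toceranib library of KU-cHCC-005, at 0.985 and 0.983. Only the library labelled KU-cHCC-005 thus lay nearest a library of its own line. The DPBS libraries were therefore left out of the tests, their levels are given as the libraries labelled DPBS, and both drugs were set against DMSO of the same line. For toceranib, drug and vehicle then cannot be told apart. Summed over 14 fibroblast markers, levels were 26.6 to 875 CPM (counts scaled to a common library size) with toceranib, 25.4 to 143 with sorafenib and 21.2 to 259 with DMSO. COL3A1, a fibrillar collagen of fibroblasts, was at 0 in the sorafenib and DMSO libraries and reached 6.54 and 51.7 CPM in the toceranib library of KU-cHCC-004 and that of KU-cHCC-005. The hepatocyte list summed to at most 201 CPM in the 12 libraries tested, and albumin (ALB), its defining transcript, reached no more than 0.424 CPM. In bulk RNA, fewer cells of a type and less RNA per cell cannot be told apart.

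**Figure D1:**
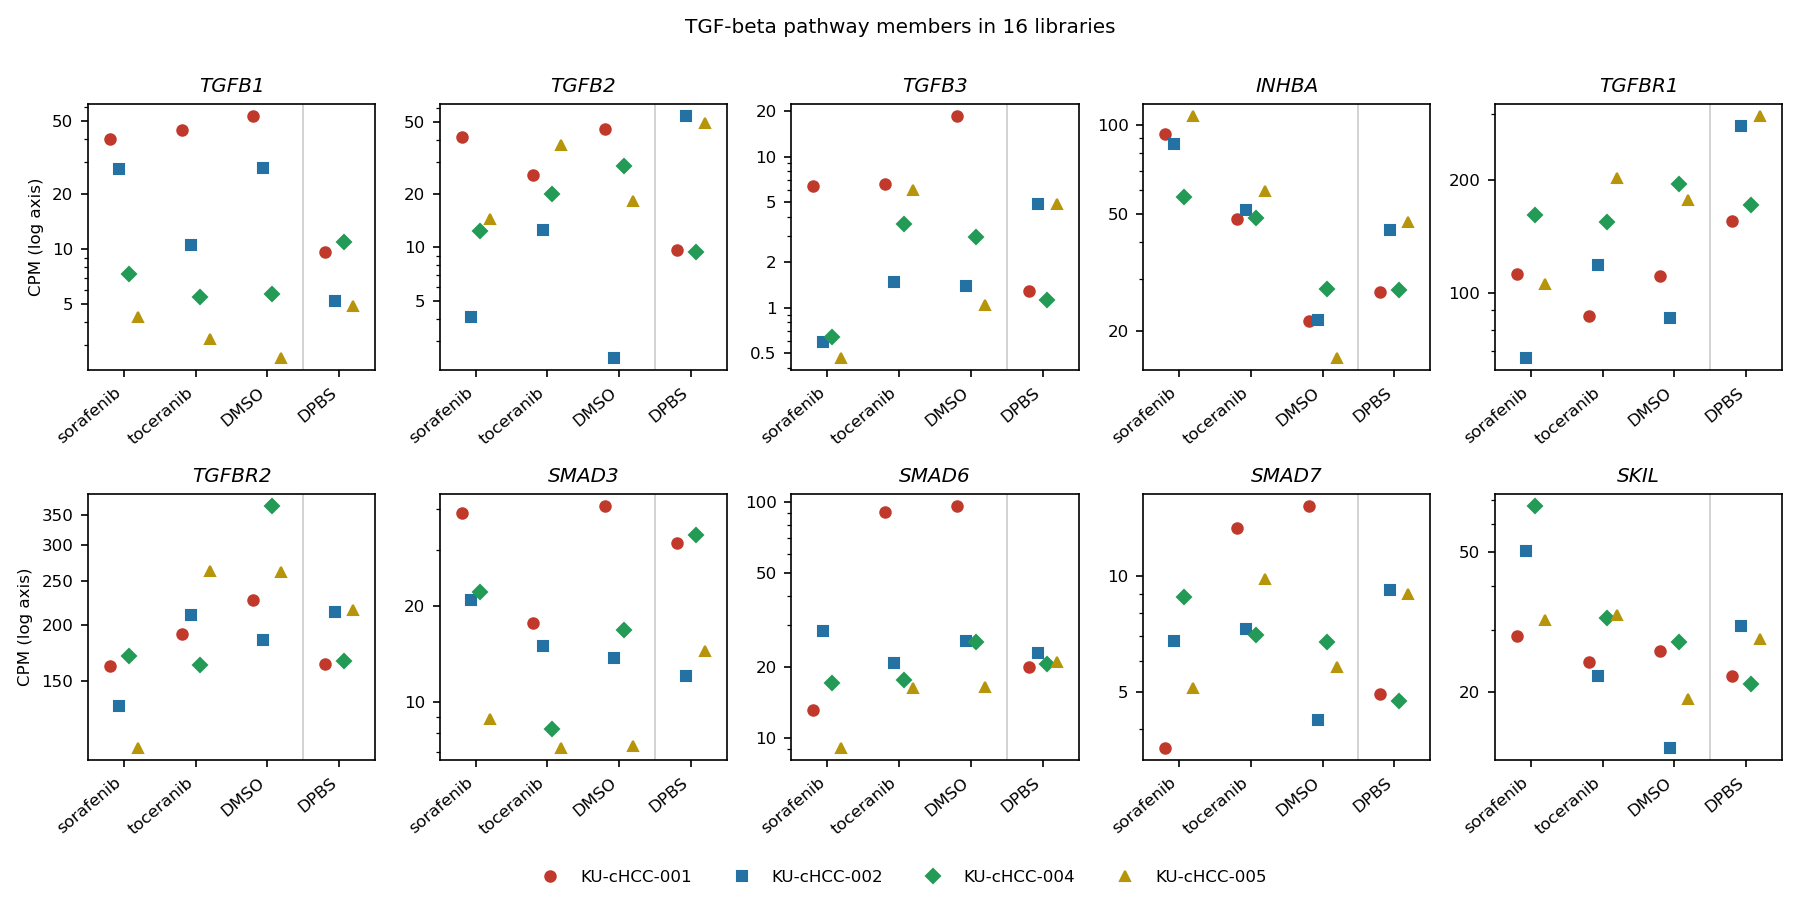
Level of each of the 10 genes in CPM (log axis) with sorafenib, toceranib, DMSO and, right of the grey line, the libraries labelled DPBS; each point is 1 library and colour and shape give the line. INHBA lay higher in every sorafenib library (57.1 to 107 CPM) than in any DMSO library (16.3 to 27.8 CPM), and TGFB1 and TGFB3 were highest in KU-cHCC-001 within each of the 3 treatments tested.

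INHBA, the activin A subunit, had the smallest adjusted p of the 10 genes with either drug. INHBA had 93.2, 86.4, 57.1 and 107 CPM with sorafenib in KU-cHCC-001, then KU-cHCC-002, then KU-cHCC-004, then KU-cHCC-005 (the order of lines used throughout), against 21.6, 21.8, 27.8 and 16.3 CPM with DMSO. The levels did not overlap, and the ratio of sorafenib to DMSO was 4.31, 3.96, 2.06 and 6.58 in the 4 lines. INHBA averaged 85.9 ± 21.1 CPM with sorafenib and 21.9 ± 4.70 CPM with DMSO (SD, n = 4 each). In edgeR's quasi-likelihood test with the line as a block, the log2 fold change was 1.94 ± 0.23 (SE; adjusted p = 0.000638), and the call held under all 13 alternatives, at log2 fold changes of 1.73 to 2.25.

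INHBA was also higher with toceranib, at 47.8, 51.3, 48.6 and 59.8 CPM, again above each of the DMSO libraries. The log2 fold change was 1.21 ± 0.23 (edgeR adjusted p = 0.0196), in the same direction in 4 of 4 lines. This call was lost in 7 of 14 alternatives: without KU-cHCC-002, without KU-cHCC-004 or without KU-cHCC-005 the adjusted p was 0.116, 0.0682 and 0.144, and without the toceranib library of KU-cHCC-005 it was 0.067. It was lost too against the libraries labelled DPBS, at 27.2 to 47.1 CPM. That fit did not have the line as a block, and gave a log2 fold change of 0.53 (edgeR adjusted p = 0.38). Set against each other, sorafenib libraries had more INHBA than toceranib libraries by 0.74 ± 0.22 on the log2 scale (edgeR adjusted p = 0.0236), at different doses and in different vehicles, and that call was lost in 5 of 13 alternatives, with adjusted p up to 0.121.

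Of the 10 genes, 3 passed an adjusted p of 0.05 between sorafenib and DMSO, where 17.2% of the 16644 genes tested did: INHBA and SKIL were higher and TGFBR2 lower, against 8.42% of all genes higher and 8.77% lower. The same 3 had levels that did not overlap between the arms, against 11.2% of all genes. Between toceranib and DMSO the count was 1 of 10, INHBA, where 6.66% of all genes passed (3.60% higher and 3.06% lower), and the share without overlap was 7.33%. The median log2 fold change over the 10 genes was -0.29 for sorafenib and 0.14 for toceranib, and over all genes -0.03 and -0.003. Both comparisons used the same DMSO libraries.

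**Figure D2:**
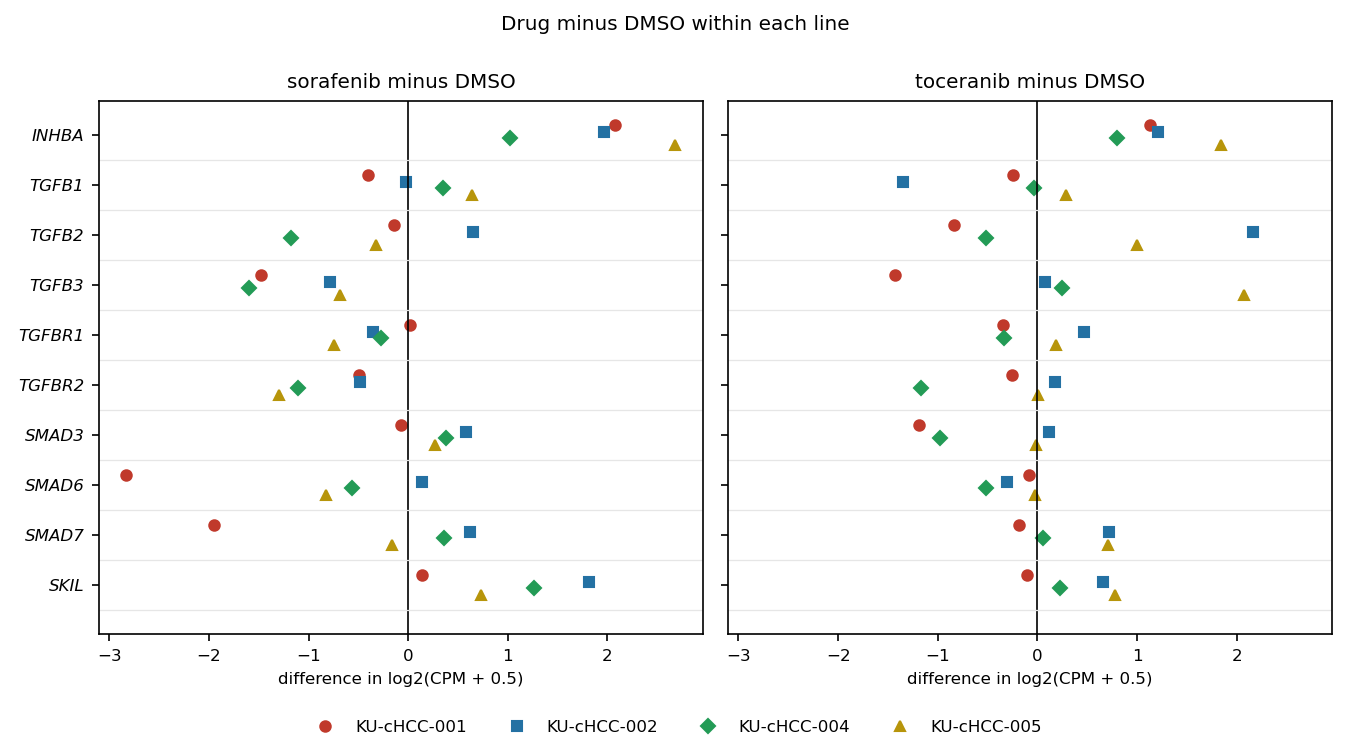
Difference of log2(CPM + 0.5) between drug and DMSO in each line, for sorafenib (left) and toceranib (right); each point is 1 line and the vertical line marks no difference. INHBA was above 0 in all 4 lines with either drug, TGFBR2 and TGFB3 were below 0 in all 4 lines with sorafenib, and SMAD6 and SMAD7 in KU-cHCC-001 lay far left of the other lines with sorafenib.

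None of the 3 TGF-beta ligands passed the test against DMSO with either drug. TGFB1, the most widely expressed isoform in adult tissue, had 40.3, 27.4, 7.32 and 4.24 CPM with sorafenib, 45.0, 10.6, 5.50 and 3.22 CPM with toceranib, and 53.5, 27.8, 5.66 and 2.54 CPM with DMSO. In each of these arms KU-cHCC-001 was highest, followed by KU-cHCC-002 and KU-cHCC-004, and KU-cHCC-005 was lowest. The fitted log2 fold change of TGFB1 was 0.12 ± 0.27 for sorafenib and -0.38 ± 0.27 for toceranib (edgeR adjusted p = 0.793 and 0.395), and in the libraries labelled DPBS the level was 4.89 to 10.9 CPM.

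TGFB2 had 41.4, 4.09, 12.3 and 14.5 CPM with sorafenib, 25.4, 12.5, 19.8 and 37.2 CPM with toceranib, and 45.8, 2.41, 28.4 and 18.3 CPM with DMSO. It lay above DMSO in some lines and below it in others: with toceranib it was 5.19 times the DMSO level in KU-cHCC-002 and 0.555 times in KU-cHCC-001. Neither drug comparison passed the test (edgeR adjusted p = 0.608 for sorafenib and 0.552 for toceranib).

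TGFB3 had 6.35, 0.598, 0.637 and 0.466 CPM with sorafenib, 6.54, 1.49, 3.60 and 6.02 CPM with toceranib, and 18.5, 1.39, 2.94 and 1.05 CPM with DMSO. The sorafenib library was the lower in 4 of 4 lines. The log2 fold change of -1.55 ± 0.56 missed the threshold (edgeR adjusted p = 0.0763), and it passed in 4 of 13 alternatives, among them DESeq2 (adjusted p = 0.0363) and the 8 sorafenib and DMSO libraries alone (0.00488). With toceranib TGFB3 was 5.73 times the DMSO level in KU-cHCC-005 and 0.354 times in KU-cHCC-001. Between the drugs it was lower with sorafenib by -1.96 ± 0.59 on the log2 scale (edgeR adjusted p = 0.0220). That call was lost in 8 of 13 alternatives, among them the one without the toceranib libraries of both KU-cHCC-005 and KU-cHCC-004 (-0.73, adjusted p = 0.327), the libraries with COL3A1 counts.

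Transcripts of both receptor chains were counted in all 16 libraries. TGFBR2, the ligand-binding type II receptor, had 162, 132, 170.2 and 107 CPM with sorafenib, against 227, 185, 366 and 262 CPM with DMSO. Each sorafenib library lay below the lowest DMSO library. TGFBR2 averaged 143 ± 29.1 CPM with sorafenib and 259.9 ± 77.1 CPM with DMSO (SD, n = 4 each), a log2 fold change of -0.86 ± 0.24 (edgeR adjusted p = 0.0286). The call was lost without KU-cHCC-002, without KU-cHCC-004 or without KU-cHCC-005, at adjusted p of 0.0746, 0.108 and 0.134, and without the replicate block, at 0.0765.

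With toceranib TGFBR2 had 190.1, 209, 163 and 263 CPM, which overlapped DMSO (log2 fold change -0.32 ± 0.24, edgeR adjusted p = 0.400). TGFBR1, the type I receptor kinase, had 112, 67.2, 161 and 105 CPM with sorafenib, 87.0, 119, 154 and 202 CPM with toceranib, and 111, 85.8, 195 and 177 CPM with DMSO. The arms overlapped throughout, with log2 fold changes of -0.33 ± 0.21 for sorafenib and -0.01 ± 0.21 for toceranib (edgeR adjusted p = 0.312 and 0.987).

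SMAD3, the transducer, had 39.0, 20.8, 22.1 and 8.90 CPM with sorafenib, 17.7, 15.0, 8.28 and 7.20 CPM with toceranib, and 41.0, 13.8, 16.8 and 7.30 CPM with DMSO. Neither drug passed the test against DMSO, with log2 fold changes of 0.27 ± 0.25 for sorafenib and -0.56 ± 0.25 for toceranib (edgeR adjusted p = 0.492 and 0.179). Between the drugs, SMAD3 was higher with sorafenib by 0.82 ± 0.25 on the log2 scale (edgeR adjusted p = 0.0241), a call lost in 4 of 13 alternatives. Of the 10 genes, 3 passed between the drugs (INHBA, SMAD3 and TGFB3), where 36.5% of all genes did (17.4% higher and 19.1% lower).

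Among the negative regulators, SKIL was higher with sorafenib. SKIL had 29.0, 50.3, 67.5 and 32.1 CPM with sorafenib, 24.4, 22.3, 32.6 and 33.2 CPM with toceranib, and 26.3, 13.9, 27.8 and 19.2 CPM with DMSO. The sorafenib libraries all lay above the highest DMSO library, narrowly in KU-cHCC-001, where the ratio was 1.10, against 3.61, 2.43 and 1.67 in the other 3 lines. The log2 fold change was 1.00 ± 0.26 (edgeR adjusted p = 0.0238). Without KU-cHCC-002, without KU-cHCC-004 or without KU-cHCC-005 the adjusted p was 0.148, 0.151 and 0.0688, and without the replicate block it was 0.105.

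The sorafenib values of SMAD6, the inhibitory SMAD of the BMP branch, stood out in KU-cHCC-001. SMAD6 had 13.1, 28.5, 17.1 and 9.06 CPM with sorafenib, 90.9, 20.8, 17.7 and 16.2 CPM with toceranib, and 96.0, 25.9, 25.5 and 16.5 CPM with DMSO. KU-cHCC-001 was far above the other lines with DMSO and toceranib and among them with sorafenib, where its level was 7.33 times lower than with DMSO. In the other 3 lines the sorafenib level was 1.10, 0.672 and 0.550 times that of DMSO.

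SMAD7, the general inhibitory SMAD, had 3.57, 6.78, 8.81 and 5.12 CPM with sorafenib, 13.3, 7.27, 7.03 and 9.83 CPM with toceranib, and 15.2, 4.22, 6.73 and 5.81 CPM with DMSO. In KU-cHCC-001 it was 4.26 times lower with sorafenib than with DMSO, while in the other lines the sorafenib level was 0.883 to 1.61 times that of DMSO. Over the 4 lines together, neither SMAD6 (log2 fold change -0.88 ± 0.44) nor SMAD7 (-0.25 ± 0.41) passed the test for sorafenib (edgeR adjusted p = 0.196 and 0.723), and without KU-cHCC-001 they were -0.40 for SMAD6 and 0.31 for SMAD7.

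The difference of the sorafenib effect between KU-cHCC-001 and the other lines was tested as an interaction. It was -2.49 ± 0.48 on the log2 scale for SMAD6 (unadjusted p = 0.000234 and adjusted p = 0.227, edgeR) and -2.42 ± 0.61 for SMAD7 (unadjusted p = 0.00188 and adjusted p = 0.356). For SKIL it was -1.19 ± 0.49 (unadjusted p = 0.0315, adjusted p = 0.710, edgeR). No gene of 17855 passed after adjustment (0%), while 1162 had an unadjusted p under 0.05, among them 3 of the 10 genes; DESeq2 called 87 genes, SMAD6 included (adjusted p = 0.00344). SMAD6 passed in 3 of 10 alternatives and SMAD7 in 1 of 10. KU-cHCC-001 contributed 1 library per treatment, so its own effect has no replicate. For toceranib, none of the 10 genes passed the same test, where 0.924% of all genes did, and TGFB3 had the smallest adjusted p, 0.202, at -2.49 ± 0.89.

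**Figure D3:**
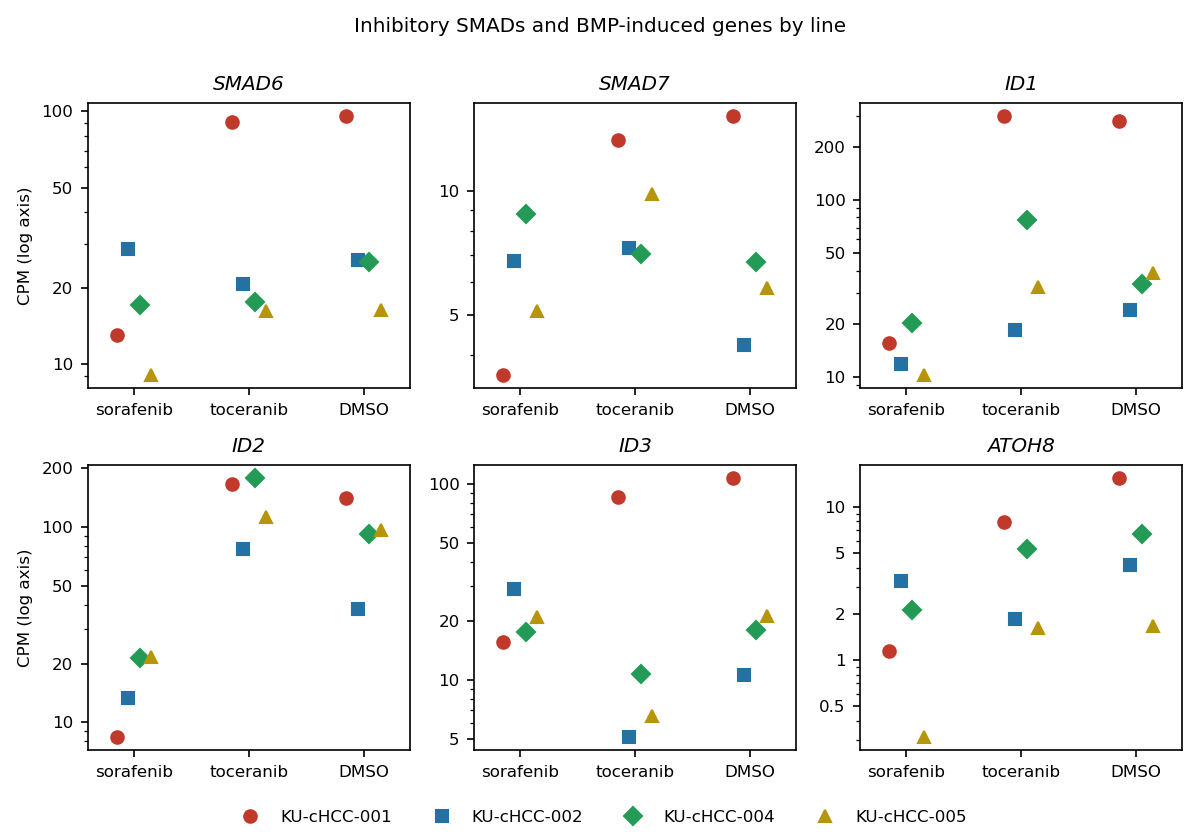
Levels in CPM (log axis) of the inhibitory SMADs and of 4 BMP-induced genes with sorafenib, toceranib and DMSO; each point is 1 library and colour and shape give the line. In KU-cHCC-001 (red circles) all 6 genes were lower with sorafenib than with DMSO, SMAD6 at 13.1 against 96.0 CPM and ID1 at 15.6 against 279.7 CPM.

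The other BMP-induced genes, which include SMAD6 in their list, were lower with sorafenib where they passed: 3 of 10 tested were lower and none higher, against 8.77% lower and 8.42% higher over all genes. ID1 and ID2 are helix-loop-helix proteins that block differentiation factors, and ATOH8 is a helix-loop-helix transcription factor. ID2 had 8.38, 13.4, 21.4 and 21.6 CPM with sorafenib and 140.2, 38.1, 92.7 and 97.0 CPM with DMSO, without overlap. Its log2 fold change was -2.42 ± 0.34 (edgeR adjusted p = 0.00176) and passed in all 13 alternatives. ID1 had 15.6, 11.9, 20.1 and 10.2 CPM with sorafenib and 279.7, 23.8, 33.6 and 38.8 CPM with DMSO, a log2 fold change of -1.81 ± 0.52 (edgeR adjusted p = 0.0401). ATOH8 fell by 1.83 ± 0.55 on the log2 scale (edgeR adjusted p = 0.0417), and the calls of ID1 and ATOH8 were lost in 6 of 13 alternatives each.

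ID3, named after its values were seen, was likewise lower with sorafenib than with DMSO in KU-cHCC-001. It had 15.5, 29.0, 17.6 and 21.0 CPM with sorafenib, 85.7, 5.07, 10.6 and 6.53 CPM with toceranib, and 107 CPM in KU-cHCC-001 and 10.5, 18.0 and 21.2 CPM in the other lines with DMSO. The interaction was -3.31 ± 0.65 for ID3, -2.94 ± 0.61 for ID1 and -2.14 ± 0.41 for ID2, none past the adjusted threshold (edgeR adjusted p = 0.227, 0.265 and 0.227). For ATOH8 the interaction was -2.57, also not past the threshold. Toceranib against DMSO gave no call among the 10 BMP-induced genes.

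**Figure D4:**
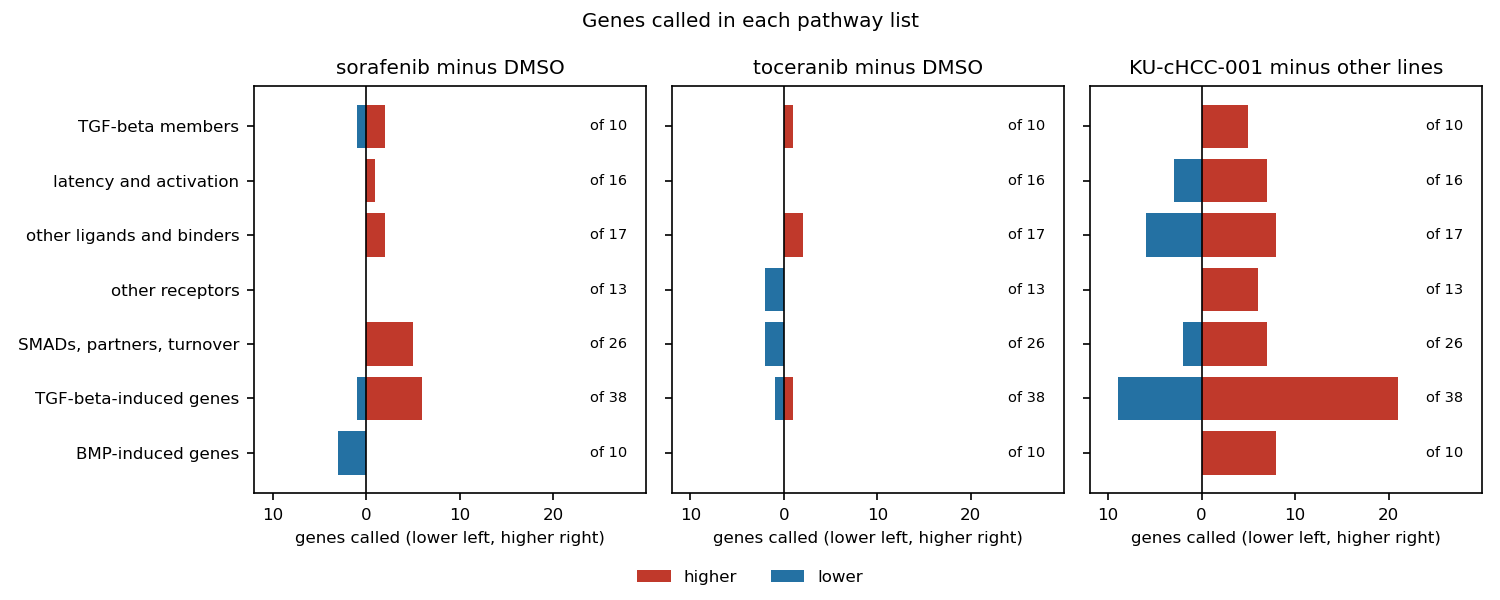
Number of genes past the adjusted p of 0.05 in each list of pathway genes, with higher to the right and lower to the left of 0, for sorafenib minus DMSO, toceranib minus DMSO and KU-cHCC-001 minus the other lines; the number tested stands at the right of each row. With sorafenib 6 of 38 TGF-beta-induced genes were higher and 1 lower, and in KU-cHCC-001 21 were higher and 9 lower.

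The rest of the pathway was read from lists of genes by role. Some genes stand in more than 1 list and were counted in each, among them BAMBI, SMAD9, SMAD6, PMEPA1 and MMP9. Of 38 TGF-beta-induced genes tested, 6 were higher and 1 lower with sorafenib, at a median log2 fold change of 0.26, where 8.42% of all genes were higher and 8.77% lower. Epithelial markers moved with these lists: the 10 markers summed to 2051, 20118, 18051 and 18408 CPM with sorafenib and 2915, 34128, 27232 and 26441 CPM with DMSO, lower with sorafenib in 4 of 4 lines, and 3 of 10 were called lower and none higher. The hepatocyte list was also lower in 4 of 4 lines, at 6.44 to 57.0 CPM with sorafenib and 20.9 to 89.4 CPM with DMSO, with none of 3 tested called. The part of these markers in the pathway differences was not tested. CDKN1A, the cell cycle inhibitor p21, had 128, 715, 893 and 875 CPM with sorafenib and 42.8, 125, 247 and 249 CPM with DMSO (log2 fold change 1.96 ± 0.27, edgeR adjusted p = 0.00145). SNAI1, a repressor of the epithelial cadherin gene, had 3.35, 52.9, 69.6 and 28.2 CPM with sorafenib and 0.891, 5.36, 21.0 and 7.30 CPM with DMSO (2.19 ± 0.33, adjusted p = 0.00228). ANGPTL4, a secreted inhibitor of lipoprotein lipase, and the cytokine gene IL11 were higher by 1.45 ± 0.29 and 2.01 ± 0.43 on the log2 scale (edgeR adjusted p = 0.00802 and 0.0103), and MMP9 also rose.

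JUNB, an AP-1 subunit and early target of SMAD3, was the gene of that list that was lower, at 38.4, 61.1, 63.4 and 44.0 CPM with sorafenib and 125, 126, 281 and 103 CPM with DMSO. Its log2 fold change was -1.55 ± 0.25 (edgeR adjusted p = 0.0030) and passed in all 13 alternatives.

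Of 26 further SMADs, partners and turnover factors, 5 were higher with sorafenib and none lower, against the same 8.42% and 8.77% of all genes. They were the corepressor TGIF1 (log2 fold change 0.74 ± 0.17), the kinase MAP3K7 or TAK1 (0.63 ± 0.14), the BMP transducer SMAD5 (0.73 ± 0.17), the ubiquitin ligase SMURF1 (0.69 ± 0.18) and SMAD2, with edgeR adjusted p of 0.0126, 0.0128, 0.0156, 0.0216 and 0.0433. Among 17 other ligands and binding proteins 2 were higher, against 8.42% of all genes: GDF15, a stress-induced member of the family, by 1.75 ± 0.33, and NOG, the BMP antagonist noggin, by 2.74 ± 0.57 (edgeR adjusted p = 0.00602 and 0.00927). Of 16 genes of latency and activation, 1 was higher, against the same 8.42%, the protease gene MMP9, by 2.39 ± 0.51 (adjusted p = 0.0104, edgeR), at 15.6 CPM with sorafenib and 1.89 CPM with DMSO in KU-cHCC-001 and 4.99 CPM or less in the other lines. None of 13 further receptors passed. Of the 15 list genes chosen by the smallest adjusted p between sorafenib and DMSO, ID2 and JUNB passed in every alternative. The other 13 lost the call in 1 to 6 of 13. SMAD2 was not among the 15, and its call was not followed through the alternatives.

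With toceranib, where 3.60% of all genes were higher and 3.06% lower, CHRD and GDF15 were higher among 17 ligands and binders, NRP1 and BMPR1B lower among 13 receptors, and ZFYVE9 and TGIF2 lower among 26 partners. COL7A1 was higher and CDH2 lower among 38 TGF-beta-induced genes, and none of 16 genes of latency and activation passed. GDF15 had 47.8, 53.2, 56.4 and 101 CPM with toceranib and 35.7, 15.9, 21.9 and 32.3 CPM with DMSO (log2 fold change 1.19 ± 0.32, edgeR adjusted p = 0.0466). ZFYVE9, the anchor protein SARA that presents SMAD2 and SMAD3 to the receptor, was lower by -0.84 ± 0.16 on the log2 scale (edgeR adjusted p = 0.0200). COL7A1, an anchoring fibril collagen, was higher by 1.87 ± 0.39 (adjusted p = 0.0242, edgeR). CHRD and BMPR1B had at most 3.17 and 4.85 CPM in the sorafenib, toceranib and DMSO libraries. Each of these 8 calls was lost in 6 to 11 of its 8 to 14 alternatives.

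The ligand transcripts TGFB1, TGFB2 and TGFB3 were higher in KU-cHCC-001 than over the other lines, and INHBA was not called. Over its sorafenib, toceranib and DMSO libraries, 5 of the 10 genes passed as higher in KU-cHCC-001 and none as lower, where 25.9% of all genes were higher and 19.0% lower (44.9% in all). Levels did not overlap for 2 of 10, TGFB1 and TGFB3, against 21.3% of all genes. The median log2 fold change was 0.97 over the 10 genes and 0.05 over all genes. This sets 1 line against 3, and its p-values measure the spread of libraries within lines.

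TGFB1 averaged 46.3 ± 6.67 CPM in KU-cHCC-001 (SD, n = 3), and 21.9 ± 9.81, 6.16 ± 1.01 and 3.34 ± 0.856 CPM in the other 3 lines. The log2 fold change against the mean of the 3 lines was 2.65 ± 0.23 (edgeR adjusted p = 2.81e-06), and each line apart was lower than KU-cHCC-001, by 1.17, 2.94 and 3.83 on the log2 scale. TGFB3 averaged 10.5 ± 6.96 CPM in KU-cHCC-001 and 1.16 to 2.51 CPM in the other lines, a log2 fold change of 2.79 ± 0.48 (edgeR adjusted p = 0.000524). Its lowest KU-cHCC-001 library, at 6.35 CPM, lay just above the toceranib library of KU-cHCC-005, at 6.02 CPM.

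TGFB2 was higher in KU-cHCC-001 by 1.57 ± 0.39 on the log2 scale (edgeR adjusted p = 0.00738), and against KU-cHCC-002 alone it passed too (2.81 ± 0.55, adjusted p = 0.00247). Against KU-cHCC-004 alone and KU-cHCC-005 alone it was 1.01 ± 0.51 and 0.89 ± 0.51 (edgeR adjusted p = 0.148 and 0.190), and the contrast was 0.88 without KU-cHCC-002 (adjusted p = 0.0665), 0.92 with all 16 libraries (0.341) and 1.14 without the sorafenib libraries (0.164). The fit with 16 libraries took the DPBS libraries by their line labels, which are in doubt. That labelled KU-cHCC-001 had 9.71 CPM of TGFB2, and the shift in that fit cannot be told apart from a wrong label. SMAD3 averaged 32.6 ± 12.9 CPM in KU-cHCC-001 and 7.80 to 16.5 CPM in the other lines (SD, n = 3 each), a log2 fold change of 1.33 ± 0.22 (edgeR adjusted p = 0.000403). TGFB1, TGFB3 and SMAD3 passed in all 12 alternatives.

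SMAD6 was higher in KU-cHCC-001 by 1.62 ± 0.39 on the log2 scale (edgeR adjusted p = 0.00588), its sorafenib library at 13.1 CPM included. In the DMSO and sorafenib libraries alone the difference was 1.16 (adjusted p = 0.0898). SMAD7 differed by 0.60 ± 0.37 (edgeR adjusted p = 0.213) and, without the sorafenib libraries, by 1.07 (adjusted p = 0.0314). INHBA, SKIL, TGFBR1 and TGFBR2 had log2 fold changes of 0.01 ± 0.21, -0.15 ± 0.25, -0.35 ± 0.21 and -0.03 ± 0.22 and did not pass. TGFBR1 was called lower in KU-cHCC-001 against KU-cHCC-004 alone (-0.70 ± 0.25, edgeR adjusted p = 0.0443) and in the fit without KU-cHCC-002 (-0.66, adjusted p = 0.0369).

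**Figure D5:**
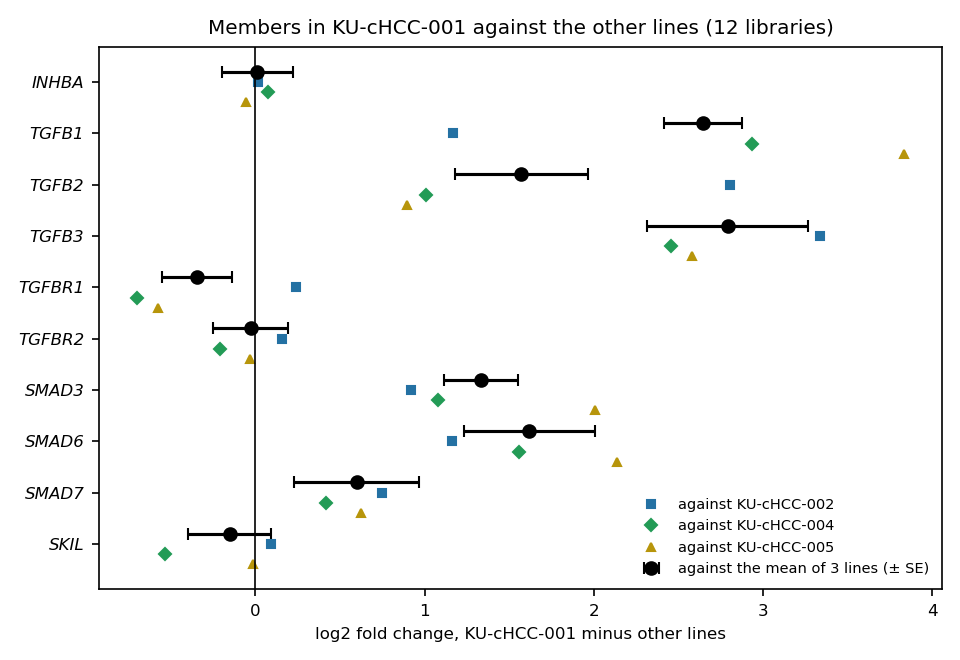
Log2 fold change of each gene between KU-cHCC-001 and the mean of the other 3 lines (black circles, ± SE) and against each line apart (coloured marks), from the 12 libraries with sorafenib, toceranib or DMSO. TGFB1 and TGFB3 lay at 2.65 and 2.79, and INHBA, SKIL and TGFBR2 lay within 1 SE of 0.

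The surrounding pathway differed in KU-cHCC-001 in both directions. Among the ligands and binding proteins 8 were higher and 6 lower of 17, where 25.9% of all genes were higher and 19.0% lower. BMP4 and BMP7, ligands of the BMP branch, had 32.5 to 59.0 and 34.3 to 52.8 CPM in KU-cHCC-001, against no more than 1.61 and 0.775 CPM in the other lines. INHBB, the subunit of activin B, was lower by -1.81 ± 0.38 on the log2 scale (edgeR adjusted p = 0.00234), and NBL1, a BMP antagonist, by -3.63 ± 0.27 (adjusted p = 8.70e-07).

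Of 16 genes of latency and activation 7 were higher and 3 lower, the number lower being near the share of all genes (19.0%). LTBP1, which tethers latent TGF-beta to the matrix, had 294 to 505 CPM in KU-cHCC-001 and 0.719 to 16.2 CPM in the other lines. The integrin subunit ITGB8, which takes part in releasing the ligand, had 68.2 to 248 CPM in KU-cHCC-001 and 1.04 to 26.9 CPM in the others, and the protease MMP14 74.7 to 107 against 1.88 to 15.4 CPM. The partner subunit ITGAV was lower in KU-cHCC-001, by -0.79 ± 0.20 on the log2 scale (edgeR adjusted p = 0.00636).

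Of 13 further receptors and co-receptors 6 were higher and none lower, where 25.9% of all genes were higher and 19.0% lower. TGFBR3, the co-receptor betaglycan, had 7.54 to 27.0 CPM in KU-cHCC-001, against no more than 1.25 CPM in the others, and the pseudoreceptor BAMBI 8.20 to 15.4 against at most 0.164 CPM. Among 26 partners 7 were higher and 2 lower, the number higher being near the share of all genes (25.9%). SMAD9, the third BMP transducer, had 12.7 to 23.5 CPM in KU-cHCC-001 and 0.422 to 1.78 CPM in the others. Of 10 BMP-induced genes tested 8 were higher and none lower, against the same 25.9% and 19.0% of all genes. Among the 8, ID4 had 20.7 to 89.7 CPM in KU-cHCC-001, against no more than 3.64 CPM in the others. MSX1 had 3.25 to 4.60 against at most 0.905 CPM.

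Of 38 TGF-beta-induced genes 21 were higher and 9 lower in KU-cHCC-001, against 25.9% and 19.0% of all genes. The fibronectin gene FN1 had 2740 to 6294 CPM in KU-cHCC-001 and 406 to 922 CPM in the others, TGFBI 20.7 to 41.7 against at most 0.482 CPM, and the transcription factor gene TWIST1 11.0 to 15.0 against at most 0.106 CPM. On the lower side, PMEPA1, an inhibitor of SMAD signalling, had 1.82 to 4.94 CPM in KU-cHCC-001 and 18.5 to 99.7 CPM in the others. SNAI1 and CDKN1A, both higher with sorafenib, were lower in KU-cHCC-001 by -3.54 ± 0.38 and -1.98 ± 0.28 on the log2 scale (edgeR adjusted p = 1.56e-05 and 0.00014). Of the 34 list genes chosen by the smallest adjusted p in this contrast, 26 passed in every alternative.

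Cell type markers moved with these line differences. The 10 epithelial markers summed to 2051 to 3201 CPM in KU-cHCC-001 and 18051 to 34128 CPM in the other lines, without overlap. Of these 10 markers 8 were called lower in KU-cHCC-001 and 1 higher, against 19.0% and 25.9% of all genes. The 9 endothelial markers summed to 66.2 to 281 CPM in KU-cHCC-001 and 6.00 to 22.1 CPM in the others, most of it in KU-cHCC-001 from EGFL7, a secreted endothelial factor, at 54.6 to 254 CPM, while the defining marker CDH5 was at most 0.105 CPM there. KDR, another endothelial marker, had 5.19 to 10.1 CPM in KU-cHCC-001, and PECAM1, not tested, reached 13.3 CPM in its toceranib library. Of 5 endothelial markers tested 3 were higher in KU-cHCC-001 and 1 lower, where 25.9% of all genes were higher and 19.0% lower. The hepatocyte list summed to 6.44 to 40.4 CPM in KU-cHCC-001 and 48.9 to 201 CPM in the others, without overlap. Of 3 hepatocyte markers tested 2 were lower in KU-cHCC-001 and 1 was higher, against 19.0% and 25.9% of all genes. The higher one was AFP, at 3.09 to 14.7 CPM in KU-cHCC-001. The 9 leukocyte markers summed to 15.6 to 338 CPM in KU-cHCC-001 and 34.9 to 88.3 CPM in the others, and CD74, the invariant chain of class II antigen presentation, reached 321 CPM in the toceranib library of KU-cHCC-001, where no library of another line exceeded 5.23 CPM. Of 4 leukocyte markers tested 1 was higher in KU-cHCC-001 and 2 were lower, against 25.9% and 19.0% of all genes. The fibroblast markers summed to 143 to 259 CPM in KU-cHCC-001 and 21.2 to 875 CPM in the others. Of 9 fibroblast markers tested 4 were higher in KU-cHCC-001 and 1 was lower, against the same shares. COL3A1 was at 0 in all 3 KU-cHCC-001 libraries, while DES had 40.7 to 137.5 CPM there. The part of these markers in the pathway differences was not tested.

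Within lines, some of the genes varied together over the 12 libraries, after each line's mean of log2(CPM + 0.5) was removed. Pearson's r was 0.81 between TGFBR1 and TGFBR2, 0.83 between SMAD6 and SMAD7 and 0.71 between INHBA and SKIL, and it was -0.70 between INHBA and TGFBR2 and -0.73 between TGFB1 and TGFB2. The libraries share treatments and lines, so these values are descriptive. For SMAD6 and SMAD7, the sorafenib library of KU-cHCC-001 lay below its DMSO library by log2 differences of -2.83 and -1.95. In the other lines, the differences with sorafenib were 0.14, -0.56 and -0.83 for SMAD6 and 0.62, 0.36 and -0.17 for SMAD7. Their correlation without KU-cHCC-001 was not computed. Over 10959 genes of a mean CPM of 5 or more, the profiles most like INHBA were TBKBP1, WSB1 and IFRD1 (each r = 0.94), and those most like SKIL were DQX1 (0.95), ST3GAL5 (0.94) and PRKAG2 (0.94). SMAD6 was closest to ASB9 (0.95), and NREP stood among the 3 closest to both SMAD6 and SMAD7 (0.95 and 0.92). SMAD3 was closest to BRAF (0.99) and COL12A1 (0.98), TGFBR1 to FNBP1 (0.98), TGFBR2 to TENT4A (0.95), TGFB1 to MRPS33 (0.92), TGFB2 to PHKA1 (0.94) and TGFB3 to ZNF852 (0.95).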

How the data were processed

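RNA sequencing libraries of 4 canine lines under 4 treatments were analysed. Per the labels, Trizol RNA went into a strand-keeping kit (NEBNext Ultra II Directional). The authors deposited raw counts per gene symbol, as whole numbers without normalization. The submitters' processing notes list TopHat. Not given in the sources used here are its version, the counting tool and its strand option, the annotation and the build; hence overlapping and antisense genes may share counts. Of 39954 entries, 500 shared 89 symbols and were summed, which left 39543 symbols. RefSeq names (assembly UU_Cfam_GSD_1.0) matched all 10 members; coordinates and sequences were not used here.

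CPM were computed from the counts on TMM library sizes over 16 libraries. Tests used edgeR 4.0.16 (robust quasi-likelihood; limma 3.58.1, R 4.3.3) on 12 libraries without DPBS, with TMM, filterByExpr on the design (16644 genes), treatment and line as terms (6 residual degrees of freedom) and Benjamini-Hochberg adjustment, with calls at an adjusted p under 0.05. The interaction fit, of treatment with KU-cHCC-001 against the other lines, had 17855 genes and 4 residual degrees of freedom. DESeq2 1.42.0 was an alternative, beside other size factors, filters and sets of libraries. The scripts were tested on simulated counts with 200 changed genes.

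Replicate numbers are line numbers, and the line was the block because a number marks the same cell line: deviations of the same line correlated at 0.755 to 0.897 between sorafenib and DMSO and at 0.572 to 0.811 between toceranib and DMSO, and 4 of 4 lines correlated best with themselves. With 1 library per line and treatment and no separate cultures stated, p-values measure the spread between these libraries. Intervals from counting alone would be too narrow, as reads carried no molecular identifiers. The members and gene lists were chosen with earlier results of these data known. Named list genes were up to 4 per list and direction with the smallest adjusted p in each comparison; any other is said to be chosen after its values were seen or completes a count, and some genes of the lists are not reported here.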

Additional observations from a re-analysis of the deposited data

Results flagged for a closer look

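In groups of 4 libraries, Dixon's criterion marked 4 of 40 groups of the 10 genes, and each time the library was of KU-cHCC-001. The criterion marks about 1 in 20 groups of independent values from a single normal distribution. That rate does not apply here: every group held the same 4 lines, and 44.9% of all genes were called between KU-cHCC-001 and the others. The share of groups marked over all genes was not computed. TGFB3 stood apart with sorafenib at 6.35 CPM and with DMSO at 18.5 CPM, where the other lines had at most 0.637 and 2.94 CPM. SMAD6 stood apart with toceranib at 90.9 CPM and with DMSO at 96.0 CPM, where the other lines had at most 20.8 and 25.9 CPM.

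The libraries labelled DPBS entered no main comparison and were used in alternative fits alone. In them, 4 of the 10 genes exceeded the highest DMSO library. The share of all genes that did so was not computed, so this count is descriptive. TGFB2 reached 54.3 CPM in the DPBS library labelled KU-cHCC-002, against 45.8 CPM with DMSO. INHBA reached 47.1 CPM in that labelled KU-cHCC-005, against 27.8 CPM. TGFBR1 reached 295 CPM in that labelled KU-cHCC-005, against 195 CPM. SKIL reached 30.9 CPM in that labelled KU-cHCC-002, against 27.8 CPM. The fibroblast markers summed to 935 and 1058 CPM in those libraries, and the part of these transcripts in the levels was not tested.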

How the results depend on the processing

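Counts of calls moved with the libraries used. Fits with all 16 libraries took the DPBS libraries by their line labels. There a shift in a contrast of lines cannot be told apart from a wrong label. Toceranib against DPBS was fitted without the line as a block. Sorafenib minus DMSO called 2861 genes and 3 members; leaving out each line gave 590 to 3933 genes and 1 to 3 members, no replicate block 464 and 1, and the 8 sorafenib and DMSO libraries 5081 genes. Toceranib minus DMSO called 1109 genes and 1 member; leaving out each line gave 4 to 3233 genes and 0 to 1 members, DESeq2 2334 genes, 16 libraries 533, the 8 toceranib and DMSO libraries 113, no replicate block 0 genes and 0 members, toceranib against DPBS 1 gene and 0 members, without the toceranib library of KU-cHCC-005 66 and 0, and without those of KU-cHCC-004 and KU-cHCC-005 0 and 0. KU-cHCC-001 minus the other lines called 7469 genes, 4777 with all 16 libraries and 4749 without the sorafenib libraries (added after seeing the data), and 5 members in each fit that left out another line, TGFBR1 in place of TGFB2 without KU-cHCC-002. Sorafenib minus toceranib called 6067 genes and 3 members; leaving out each line gave 3162 to 7081 genes and 1 to 5 members, no replicate block 2159 and 0, without the toceranib libraries of KU-cHCC-004 and KU-cHCC-005 2441 and 0, and 16 libraries 1 member. The sorafenib interaction called 0 genes and 0 members, 87 and 1 by DESeq2, 74 and 1 with no filter, 243 and 2 without those toceranib libraries, and 1 to 7 genes without another line. The toceranib interaction called 165 genes, 585 by DESeq2, 568 with no filter, 30 with 16 libraries, 74 to 363 without another line, and 2398 and 1 member without those toceranib libraries.

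Besides NRP1 with toceranib (0.30 against DPBS), the log2 fold changes that turned sign were ones that missed the threshold. When each line was left out in turn, they ranged as follows: for sorafenib, SMAD7 from -0.57 to 0.31 and TGFB1 from -0.011 to 0.30; for toceranib, TGFB2 from -0.10 to 0.88, TGFB3 from -0.33 to 1.01 and TGFBR1 from -0.17 to 0.13; for KU-cHCC-001 minus the other lines, INHBA from -0.016 to 0.063, SKIL from -0.31 to 0.025 and TGFBR2 from -0.12 to 0.071; and for the sorafenib interaction, TGFB3 from -0.38 to 0.26. With no replicate block, TGFB1 was -0.19 for sorafenib, and TGFB2 -0.018 and TGFB3 -0.46 for toceranib. Against DPBS, toceranib gave 0.81 for SMAD6, 1.09 for TGFB1, -0.35 for TGFB2 and 0.14 for TGFBR2. TGFBR1 with toceranib was 0.039 with DESeq2's size factors and with its test, 0.021 with the filter by treatment, 0.0034 without 2 toceranib libraries and 0.00045 with 8 libraries. TGFB3 with toceranib was -0.31 without the library of KU-cHCC-005 and -0.83 without 2. For KU-cHCC-001, INHBA was -0.0094 with no filter, -0.11 with 16 libraries and -0.13 without sorafenib, SKIL 0.062 without sorafenib, and TGFBR2 0.050 without the toceranib library of KU-cHCC-005 and in DMSO and sorafenib alone. The TGFB3 sorafenib interaction was -0.0072 without that toceranib library. The cause of these shifts was not tested. CPM without TMM moved each mean level of the 10 genes by less than the spread between lines.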
